A study of Mus musculus with 20 samples.

Results

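The motile cilia genes of the cells that line the brain ventricles were examined in hippocampal RNA: Foxj1, Rsph1, Ccdc153, Tmem212, Dynlrb2, Cfap126, Dnah11, Rsph4a and Spag6l. They were chosen by name, with earlier results of these data known, as rows of the deposited count table, 9 of its 33119 genes. All 9 passed edgeR's filter on low counts, as did 21724 genes in all. The question was whether they differ with sex or APOE genotype, and whether they follow, mouse by mouse, the choroid plexus gene Ttr. The hippocampus of 20 C57BL/6 mice aged 16 months was sequenced, 5 mice in each of 4 groups. The females were S144 to S148 with hAPOE3 and S164 to S168 with hAPOE4, and the males were S154 to S158 with hAPOE3 and S174 to S178 with hAPOE4. All mice were homozygous for a targeted replacement of the mouse Apoe coding sequence, by human APOE3 in the hAPOE3 groups and by human APOE4 in the hAPOE4 groups, so that every group carries a human allele and none carries the mouse one. The authors assigned paired-end polyA reads to mouse transcripts with Salmon and deposited estimated counts per gene, from which levels in CPM, counts scaled to the TMM-normalized size of each library, were computed. Each mouse is 1 sample, and p-values measure the spread between mice.

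Ependymal cells form the ventricular lining, and each carries a tuft of motile cilia whose beat moves the cerebrospinal fluid over the surface. The core of such a cilium is a ring of microtubule doublets around a central pair. Dynein arms on the doublets drive the beat, and radial spokes pass signals between the doublets and the central pair. Foxj1 is the forkhead transcription factor that switches on the motile cilia programme, and the RFX factors act beside it through a promoter motif named the X-box. The choroid plexus hangs in the same ventricles, secretes the fluid, and makes transthyretin, the product of Ttr, in large amount. The lateral ventricle lies against the hippocampus, so that a dissected hippocampus can carry pieces of both tissues.

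Promoters of the members are shown because all 9 are taken to belong to one transcriptional programme. RefSeq's table of GRCm38.p6 promoters, 250 bases before each gene's start to the bases just after it, held windows for 6 of the 9 members: Cfap126, Tmem212, Dynlrb2, Ccdc153, Spag6l and Dnah11. A loose form of the X-box, searched on both strands, stood in a window of 5 of these 6 genes and in 12.1% of all 27025 genes with a window. Counted by window, it stood in 5 of the 8 windows of these genes and in 10.8% of all 32851 windows. This form was chosen after these promoters had been searched, so that these shares are not an independent comparison. The core of the forkhead motif, GTAAACA, on either strand, stood in 0 of the 6 and in 4.05% of all genes. These matches describe the letters only. The stretches around the X-box matches are given 5′ to 3′ on the gene's strand, with the match in capitals. That of Cfap126 lies at chr1:171122903-171123036 (plus strand), upstream of the last of its 3 RefSeq starts, and the windows of its earlier starts hold none. That of Tmem212 lies at chr3:27896369-27896495 (minus strand), that of Dynlrb2 at chr8:116504904-116505014 (plus strand) and that of Ccdc153 at chr9:44240484-44240615 (plus strand).
Cfap126: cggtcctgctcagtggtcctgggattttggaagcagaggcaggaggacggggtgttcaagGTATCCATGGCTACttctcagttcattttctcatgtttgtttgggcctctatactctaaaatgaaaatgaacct
Tmem212: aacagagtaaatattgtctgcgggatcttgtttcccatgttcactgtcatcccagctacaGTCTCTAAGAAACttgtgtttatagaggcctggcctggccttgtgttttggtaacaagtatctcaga
Dynlrb2: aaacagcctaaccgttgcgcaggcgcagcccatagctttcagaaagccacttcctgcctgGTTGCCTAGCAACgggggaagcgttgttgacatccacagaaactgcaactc
Ccdc153: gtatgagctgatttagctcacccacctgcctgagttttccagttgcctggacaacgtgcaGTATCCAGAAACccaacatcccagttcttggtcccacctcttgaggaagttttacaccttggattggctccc
The matches begin 82 bases before the last start of Cfap126, 67 before the start of Tmem212, 51 before that of Dynlrb2 and 133 before that of Ccdc153. Spag6l holds its match, GTTGCCCTGGAGAC, 34 bases after its start (chr16:16829316-16829329, minus strand), and the window of Dnah11 holds none.

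Depth was high and the cilia genes were low. Between 35778879 and 52520279 counts were assigned per mouse, and the members had from 19 counts (Tmem212, mouse S145) to 1262 counts (Foxj1, mouse S176). Xist was at 654 CPM or more in every female and at 28.4 or less in every male, Ddx3y at 47.2 or more in every male and at 0.862 or less in every female, so that no library went against its sex. Mouse Apoe was at 37.4 to 98.9 CPM over all mice and does not check which human allele a mouse carried. Within the hAPOE3 mice, S147, S148, S156, S157 and S158 stood apart: their score over 67 nuclear oxidative phosphorylation genes (mean log2 CPM, centred per gene) lay between 0.28 and 0.42, and between -0.31 and -0.14 in the other 5. All 5 also had more Ccdc153 (5.90 to 7.81 CPM against 1.66 to 5.60) and more Dynlrb2 (2.09 to 2.90 against 0.578 to 1.38). The other members overlapped between these sets of mice, and the share of all genes that did not overlap was not computed. The part of the difference between these sets in the results was not tested beyond the alternatives given beside them. The labels name hippocampus, and 8 markers of hippocampal neurons summed to 730 to 1406 CPM per mouse. Markers of neighbouring regions varied more, with 8 striatal markers summing to 82.7 to 752 CPM and 6 thalamic markers to 93.1 to 563.

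Per kilobase of merged exons, Foxj1 was the highest of the 9 members at 4.43 ± 1.72 CPM (SD, n = 20). It was followed by Tmem212 (3.94 ± 1.39), Rsph1 (3.70 ± 1.38), Dynlrb2 (3.16 ± 1.185), Ccdc153 (2.70 ± 0.831), Cfap126 (1.77 ± 0.747), Rsph4a (1.598 ± 0.452), Spag6l (1.52 ± 0.298) and Dnah11 (0.225 ± 0.119). The ranges of mean ± SD of neighbours in this order overlapped, except that Dnah11 was far below Spag6l. The level of Dnah11 per kilobase is uncertain, because its transcripts run from 680 to 14072 bases and its exons overlap those of Cdca7l on the opposite strand, and whether the counting used strand is not given in the sources used here. The factor between the 2 deposited tables, which carries the authors' correction for transcript length, also varied 4.66-fold between mice for Dnah11. For the other members it varied by 1.00 to 1.28-fold. Spag6l shares 2.08% of its 31-base words with other genes, mostly its near copy Spag6, and Ccdc153 shares 4.16%.

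Foxj1 (chromosome 11, 116330704 to 116335399, GRCm38) is the regulator of the programme. In hAPOE3 males it was at 11.2, 8.53, 10.8, 8.24 and 16.9 CPM, in the order of the mouse numbers, and in hAPOE4 males at 8.91, 10.3, 25.4, 8.15 and 9.14. In hAPOE3 females it was at 15.01, 6.59, 7.34, 12.4 and 9.68 CPM, and in hAPOE4 females at 11.6, 18.2, 11.3, 14.2 and 8.39. All 4 groups overlapped, and the hAPOE4 male S176 was the highest of all 20 mice.

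Rsph1 (chromosome 17, 31255019 to 31277383) and Rsph4a (chromosome 10, 33905111 to 33916021) encode proteins of the radial spoke head. Rsph1 was at 2.92, 3.56, 4.18, 4.55 and 7.0 CPM in hAPOE3 males, at 3.44, 4.01, 4.59, 3.46 and 5.46 in hAPOE4 males, at 6.21, 2.74, 3.05, 7.47 and 7.81 in hAPOE3 females and at 5.44, 8.90, 7.97, 5.09 and 3.63 in hAPOE4 females. Rsph4a was at 4.63, 4.98, 4.93, 3.71 and 4.19 CPM in hAPOE3 males, at 5.21, 5.19, 6.20, 4.67 and 6.26 in hAPOE4 males, at 8.41, 4.53, 5.14, 4.97 and 6.17 in hAPOE3 females and at 7.21, 9.24, 8.83, 7.92 and 4.23 in hAPOE4 females. Among hAPOE4 females, S164 to S167 had more Rsph4a than all hAPOE4 males, but S168 had less than all of them.

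Dnah11 (chromosome 12, 117877982 to 118199043), an outer arm dynein heavy chain, had a coefficient of variation of 53.0% over the 20 mice in CPM. In the deposited normalized counts it was 40.8%, below the 44.6% of Cfap126, so that its place as the most variable member depends on the table. It was at 2.62, 2.32, 1.87, 2.03 and 3.49 CPM in hAPOE3 males, at 2.38, 2.83, 6.16, 2.38 and 2.22 in hAPOE4 males, at 4.73, 1.11, 2.03, 2.69 and 3.04 in hAPOE3 females and at 4.34, 8.15, 5.28, 3.66 and 1.67 in hAPOE4 females. Spag6l (chromosome 16, 16753016 to 16829456), a protein of the central pair, exhibited the smallest spread, 19.6% in CPM and 20.6% in the deposited normalized counts. Spag6l was at 5.81, 5.69, 6.22, 6.96 and 5.63 CPM in hAPOE3 males, at 7.22, 6.49, 5.75, 6.29 and 4.92 in hAPOE4 males, at 8.10, 6.19, 6.25, 7.18 and 8.15 in hAPOE3 females and at 8.04, 9.70, 9.99, 7.94 and 6.09 in hAPOE4 females. In hAPOE4 mice, 4 of 5 females lay above all males in Spag6l, and S168 lay among the males.

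Cfap126 (chromosome 1, 171113918 to 171126967) encodes Flattop, a protein of the ciliary microtubules. It was at 2.06, 1.53, 2.84, 3.82 and 4.69 CPM in hAPOE3 males, at 1.92, 2.78, 3.58, 2.12 and 2.41 in hAPOE4 males, at 3.73, 1.36, 1.26, 4.16 and 5.25 in hAPOE3 females and at 4.46, 4.96, 4.98, 3.26 and 1.65 in hAPOE4 females. Dynlrb2 (chromosome 8, 116504974 to 116515915), a dynein light chain of the roadblock family, ranged from 0.578 CPM in S145 to 2.90 in S148. Ccdc153 (chromosome 9, 44240676 to 44247306), a coiled-coil protein, and Tmem212 (chromosome 3, 27866066 to 27896368), a membrane protein, are used as markers of ependymal cells. Ccdc153 ranged from 1.66 to 7.81 CPM and Tmem212 from 0.478 to 4.94.

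A single mouse was the lowest in most members. The hAPOE3 female S145 was the lowest of all 20 mice in 6 of the 9 members, and its Tmem212, 0.478 CPM from 19 counts, was below the range of 1.97 to 4.94 of the other 19. Its score over the 9 members, the mean of their log2 CPM centred per gene, was -1.08. The next lowest score was -0.54, in the hAPOE4 female S168, and the highest was 0.75, in the hAPOE4 female S165. In Foxj1 (6.59 CPM against 7.34 in S146), Rsph1 (2.74 against 2.92 in S154) and Dynlrb2 (0.578 against 0.621 in S168) the next lowest mouse was close to S145. The total of counts of S145 lay within the range of the other mice.

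**Figure D1:**
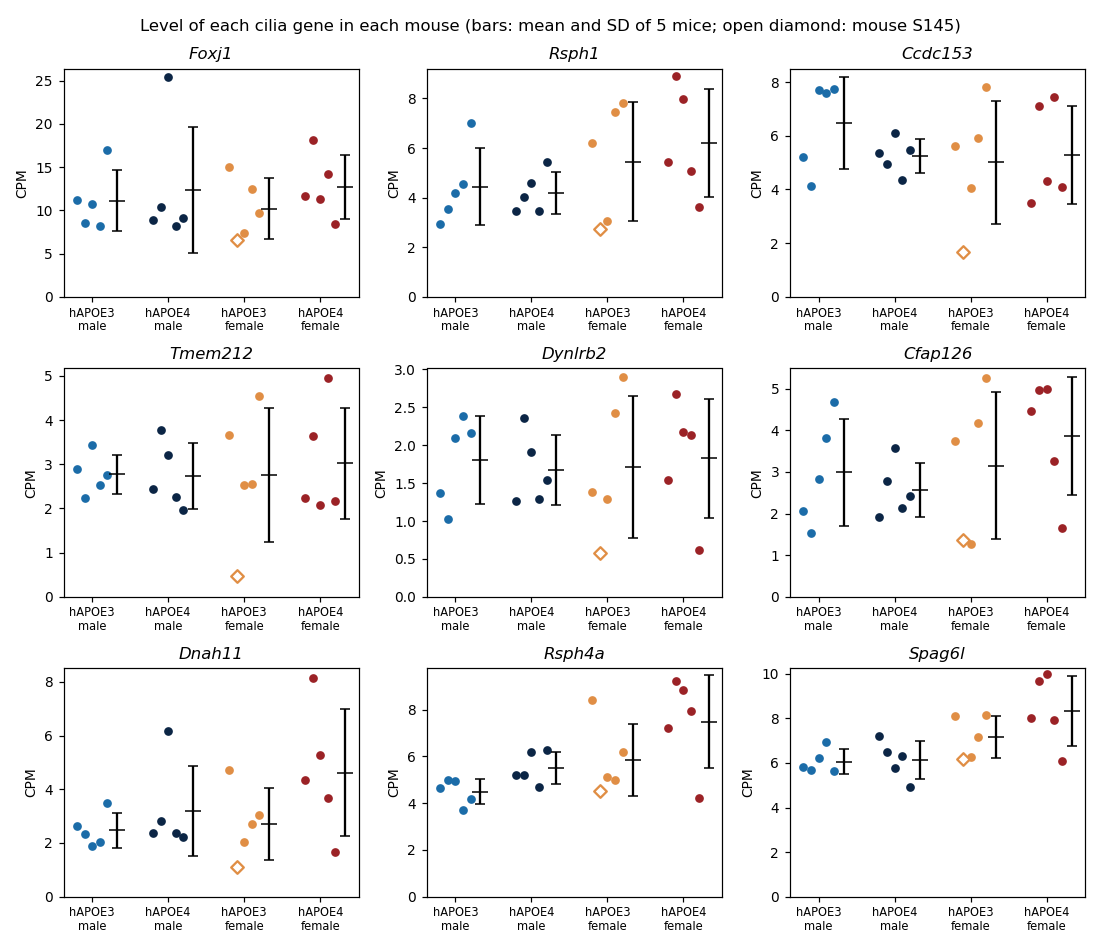
CPM (y axis, from 0) of each of the 9 cilia genes in each mouse, by group (x axis), with the mean and SD of the 5 mice as a bar. The 4 groups overlap in every gene, and the hAPOE3 female S145, drawn as an open diamond, is the lowest mouse in 6 of the 9.

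None of the members passed the threshold (edgeR's quasi-likelihood test, adjusted p under 0.05 over all 21724 genes) between genotypes or between sexes. Between hAPOE4 and hAPOE3 males, edgeR called 0 of 9 members and 0.621% of all genes, 0 of 9 against 9.06% at an unadjusted p under 0.05, and DESeq2 0 of 9 against 1.21%. The members' median log2 fold change was -0.02, beside 0.00 over all genes, and single members ran from -0.30 in Ccdc153 (95% interval -0.92 to 0.31) to 0.37 in Dnah11 (-0.42 to 1.17). Between hAPOE4 and hAPOE3 females, edgeR called 0 of 9 members and 0.667% of all genes, 0 of 9 against 10.1% unadjusted, and DESeq2 0 of 9 against 1.37%. All 9 estimates were above 0 there, with a median of 0.22 beside 0.00 over all genes, up to 0.76 in Dnah11 (-0.03 to 1.56, edgeR adjusted p = 0.519). From the deposited normalized counts, which carry the correction for transcript length, the estimate of Dnah11 was 0.24. Without S145 only 6 of 9 estimates stayed above 0, those of Ccdc153, Tmem212 and Dynlrb2 being -0.15, -0.14 and -0.13 and the median 0.099, and without S165 or S167 only 7 of 9.

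Females and males were compared within each genotype. In hAPOE3 mice, edgeR called 0 of 9 members and 0.0414% of all genes, 0 of 9 against 5.22% unadjusted, and DESeq2 0 of 9 against 0.0856%. Estimates ran from -0.37 in Ccdc153 to 0.38 in Rsph4a, with a median of 0.08. In hAPOE4 mice, edgeR called 0 of 9 members and 0.437% of all genes, and DESeq2 0 of 9 against 0.916%. At an unadjusted p under 0.05, 2 of 9 members passed, beside 5.8% of all genes. Spag6l was 0.45 higher in females on the log2 scale (SE 0.14, 8.35 ± 1.57 against 6.13 ± 0.856 CPM, SD, n = 5), with an edgeR adjusted p = 0.363 over all genes. Rsph4a was 0.44 higher (SE 0.19, 7.49 ± 1.99 against 5.50 ± 0.696 CPM), with an edgeR adjusted p = 0.722. The groups overlapped in both genes, and the same female, S168, made the overlap. All 9 estimates were above 0, with a median of 0.44 beside -0.01 over all genes. This direction did not hold in every setting: 6 of 9 were above 0 without S165 (median 0.23) and without S167, 7 of 9 without S175 or S177, and 8 of 9 without S174 or S178 and from the deposited normalized counts. The comparisons share groups of mice and are not independent of each other.

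The interaction of sex and APOE, the difference between the genotype effect in females and that in males, was above 0 in all 9 members, from 0.06 in Rsph4a to 0.51 in Cfap126 (95% interval -0.60 to 1.63), with a median of 0.21. Without S145 only 6 of 9 were above 0 (median 0.10), and 8 of 9 were without S158, S165 (median 0.085), S166 or S167 and with the oxidative phosphorylation score as a covariate. None passed: edgeR called 0 of 9 members and 0.184% of all genes, 0 of 9 against 2.54% unadjusted, and DESeq2 0 of 9 against 0.382%. Ttr itself moved with the same groups without passing: it was 2.19 higher in hAPOE4 females than in hAPOE4 males on the log2 scale (SE 1.34, edgeR adjusted p = 1.00), and 1.23 in the interaction (SE 1.82). With Ttr as a covariate, edgeR again called 0 of 9 members in each of the 5 comparisons. The median difference between hAPOE4 females and males was then 0.11 in place of 0.44, with 6 of 9 above 0. Cfap126 went from 0.59 to 0.03, Rsph1 from 0.57 to 0.17 and Dynlrb2 from 0.13 to -0.22, while Spag6l (0.36) and Rsph4a (0.33) moved less. The median of the interaction hardly moved, 0.199 in place of 0.209, with all 9 above 0. So it was between hAPOE4 and hAPOE3 females, 0.205 in place of 0.219 with all 9 above 0, and between the male genotypes (-0.02 in both fits). Between hAPOE3 females and males the median went from 0.08 to -0.21, with 2 of 9 above 0.

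**Figure D2:**
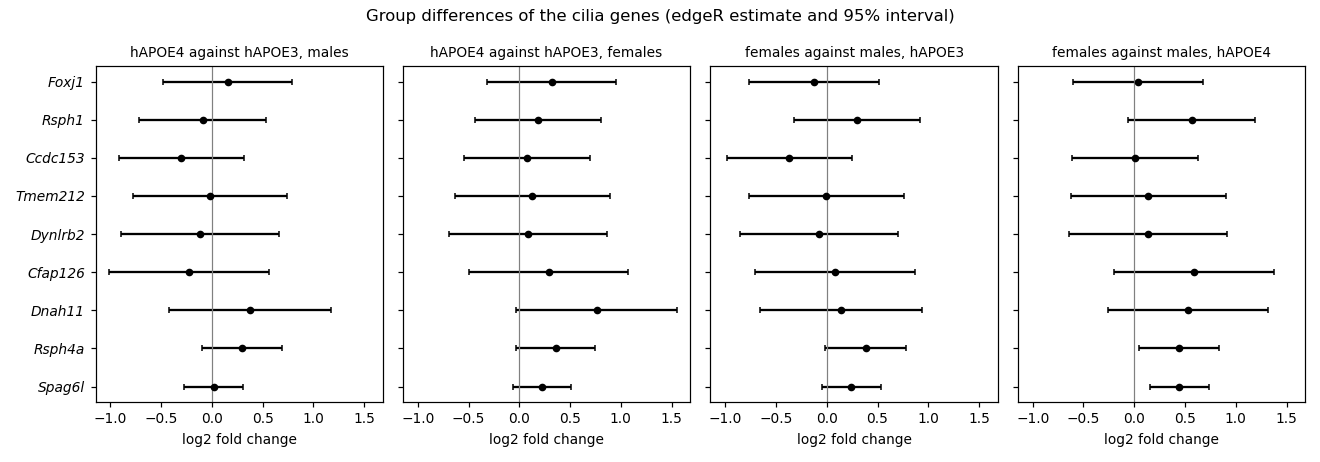
Log2 fold change (x axis) of each cilia gene in the 4 comparisons of 5 against 5 mice, with the edgeR estimate as a point and its 95% interval as a bar. Of the 36 intervals, those of Spag6l and Rsph4a between hAPOE4 females and males lie above 0, and both genes have adjusted p-values above 0.05.

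The other genes of motile cilia were read from lists of regulators, outer and inner dynein arms, radial spokes, the central pair, dynein assembly factors, ciliary microtubule proteins and other ependymal markers, of which 90 of 93 genes were tested. By edgeR 1 of 90 passed between the genotypes in each sex, beside 0.621% of all genes in males and 0.667% in females, and it was Dnah6 (chromosome 6, 73017606 to 73221651), an inner arm dynein heavy chain. It was at 13.1, 13.9, 15.05, 14.4 and 9.48 CPM in hAPOE4 males and at 4.45, 6.19, 4.06, 4.27 and 6.04 in hAPOE3 males. It was at 17.0, 24.2, 16.6, 19.6 and 12.4 CPM in hAPOE4 females and at 13.4, 3.02, 4.80, 4.51 and 6.45 in hAPOE3 females. The male groups did not overlap, and the female groups overlapped through the hAPOE3 mouse S144. Dnah6 rose by 1.40 on the log2 scale in males (SE 0.29, edgeR adjusted p = 0.0189) and by 1.48 in females (SE 0.29, edgeR adjusted p = 0.0134). With only the 2 groups in the fit the female call was lost (edgeR adjusted p = 0.0815), and with the oxidative phosphorylation score as a covariate so was the male one (edgeR adjusted p = 0.0787, log2 fold change 1.26). It was also lost without single mice, in males without S156, S157, S175 or S177 and in females without S147 or S165, with edgeR adjusted p-values of 0.0509 to 0.0569. DESeq2 called Dnah6 in both sexes and, in females, also Rsph3a, a radial spoke gene with a near copy, Rsph3b (log2 fold change 0.74, DESeq2 adjusted p = 0.00755). These DESeq2 calls stood beside 1.21% of all genes in males and 1.37% in females. Rsph3a, named after its values were seen, also passed in edgeR with Ttr as a covariate (edgeR adjusted p = 0.0436), with the oxidative phosphorylation score (edgeR adjusted p = 0.0409) and without S145 (edgeR adjusted p = 0.0406). Between the sexes 0 of 90 listed genes passed in either genotype by edgeR or by DESeq2. At an unadjusted p under 0.05 in edgeR, 7 of 90 passed in hAPOE3 mice, beside 5.22% of all genes. In hAPOE4 mice 13 of 90 did, beside 5.8% of all genes. These lists were chosen with earlier results of these data known, so that such shares are not an independent comparison. In the interaction 0 of 90 passed by either tool, and 0 had an unadjusted p under 0.05, beside 2.54% of all genes.

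Ttr varied far more between mice than any cilia gene, 158.2-fold from 37.3 to 5906 CPM. It was at 43.4, 45.8, 89.4, 2278 and 3161 CPM in hAPOE3 males, at 70.2, 94.7, 2570, 115.3 and 719.3 in hAPOE4 males, at 3430, 1225, 37.3, 2531 and 3668 in hAPOE3 females and at 4229, 5607, 5906, 439.8 and 66.6 in hAPOE4 females. The mice fell into 2 separate sets, 8 mice at 37.3 to 115.3 CPM and 12 mice at 439.8 CPM or more, with a gap of 1.93 on the log2 scale between them, against 0.90 for the next widest gap. The set of 8 holds S146, S168, the hAPOE3 males S154 to S156 and the hAPOE4 males S174, S175 and S177. How much choroid plexus or ventricular lining a dissection carried and how much RNA each cell held cannot be told apart in bulk tissue, for Ttr and for the cilia genes alike.

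Over all 20 mice, with the 4 group means in the fit, 4 of the 9 members rose with Ttr (edgeR, test of the slope on the log2 CPM of Ttr, adjusted over 21723 genes), beside 7.08% of all genes that rose and 13.1% that rose or fell. Cfap126 rose by 0.21 per log2 unit of Ttr (SE 0.03, 95% interval 0.14 to 0.28, edgeR adjusted p = 0.000433), which is 15.6% per doubling. Rsph1 rose by 0.15 (SE 0.03, edgeR adjusted p = 0.00224), Dnah11 by 0.15 (SE 0.04, edgeR adjusted p = 0.0281) and Foxj1 by 0.12 (SE 0.04, edgeR adjusted p = 0.0326). Foxj1 lost its call in 4 of the 8 other settings, with adjusted p-values of 0.0643 by limma on the deposited normalized counts, 0.0904 by edgeR with one intercept, 0.0657 with the rank of Ttr and 0.0507 without the 2 mice farthest from the median Ttr. Dynlrb2 had a slope of 0.13 (SE 0.05) and missed the threshold (edgeR adjusted p = 0.0827). At an unadjusted p under 0.05, 5 of 9 passed beside 29.9% of all genes, and DESeq2 called 5 of 9, Dynlrb2 included, beside 17% of all genes. Because the members were chosen with earlier results of these data known, their shares and those of all genes are not an independent comparison.

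The other 4 members did not pass. Ccdc153 had a slope of 0.07 (95% interval -0.02 to 0.15), Rsph4a of 0.05 (-0.01 to 0.10), Spag6l of 0.03 (-0.01 to 0.07) and Tmem212 of 0.01 (-0.10 to 0.12). The upper end for Spag6l, 0.07, lies below the lower end of the interval for Cfap126, 0.14. Of all genes tested, 1.74% had a larger slope than Cfap126, 3.30% than Rsph1 and 40.5% than Tmem212. The median slope of the 9 members was 0.12, beside 0.00 over all genes.

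These slopes were small beside those of the choroid plexus. All 13 other choroid plexus genes tested rose with Ttr, with a median slope of 0.74. Slc4a5, a bicarbonate transporter, had a slope of 0.90 (SE 0.04), the potassium channel genes Kcne2 and Kcnj13 of 0.89 (SE 0.03) and 0.88 (SE 0.03), the tight junction gene Cldn2 of 0.79 (SE 0.05) and the folate receptor gene Folr1 of 0.78 (SE 0.04). Of the 90 other motile cilia genes, 23 rose, 2 fell and 65 did not pass, with a median slope of 0.05. Without S158, 13 passed in place of 25. With each mouse left out in turn, the number of all genes that passed also varied, from 904 to 4831 beside 2852. By role, 5 of 12 ciliary microtubule proteins rose, 4 of 16 other ependymal markers, 3 of 18 genes of inner arms and rulers, 3 of 10 of the central pair, 3 of 9 of the outer arms, 2 of 10 assembly factors, 2 of 8 regulators and 1 of 7 radial spoke genes. The 2 that fell were the regulator Rfx3 (slope -0.09, edgeR adjusted p = 0.0233) and the outer arm gene Dnal1 (slope -0.06, edgeR adjusted p = 0.0349). Of the 25 that passed, the 10 with the smallest p-values were Drc7, Tekt1, Mia, Dydc2, Pifo, Ccdc113, Ccdc114, Dnaaf3, Spag8 and Dnah7b, with slopes from 0.11 in Ccdc114 to 0.42 in Drc7, a part of the dynein regulatory complex. Of 16 genes of primary cilia, the single sensory cilia that most cells have, 0 rose and 1, Gpr161, fell.

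Genes of other tissues moved with Ttr too. Of the markers of striatal neurons 5 of 8 rose, of thalamic neurons 4 of 6, and of meninges and vessels 6 of 10, while 3 of 8 markers of hippocampal neurons fell. Of 10 astrocyte markers 2 rose and 1 fell. The 10 meningeal and vessel markers summed to 212 to 344 CPM per mouse in hAPOE3 males, 225 to 420 in hAPOE4 males, 231 to 338 in hAPOE3 females and 235 to 411 in hAPOE4 females, and the choroid plexus list of 14 genes, Ttr included, to 284 to 9691 over all mice. No listed gene was at 0 in all mice. Of 2 testis genes that passed the filter 1 rose, and both were low. The part of these cells in the slopes of the cilia genes was not tested.

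Within the 2 sets of mice, analyses added after the data were seen, no member passed. In the 12 mice with high Ttr, edgeR called 0 of 9 members and 0.409% of 22969 genes, with 2 of 9 against 4.77% at an unadjusted p under 0.05. These were Dnah11, with a slope of 0.38 (95% interval 0.09 to 0.66, edgeR adjusted p = 0.697), and Cfap126, with 0.27 (0.05 to 0.50, edgeR adjusted p = 0.890). In the 8 mice with low Ttr, with one intercept, edgeR called 0 of 9 members and 0% of 18131 genes, with 1 of 9 against 9.09% unadjusted. That was Cfap126, with a slope of 0.51 (0.10 to 0.92, edgeR adjusted p = 0.511). The slope was above 0 over all mice and in each set in 7 of the 9 members, Tmem212 (-0.01 in the 12) and Rsph4a (-0.01 in the 8) being the exceptions. That of Rsph1 was 0.21 in both sets, with intervals that reached below 0.

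**Figure D3:**
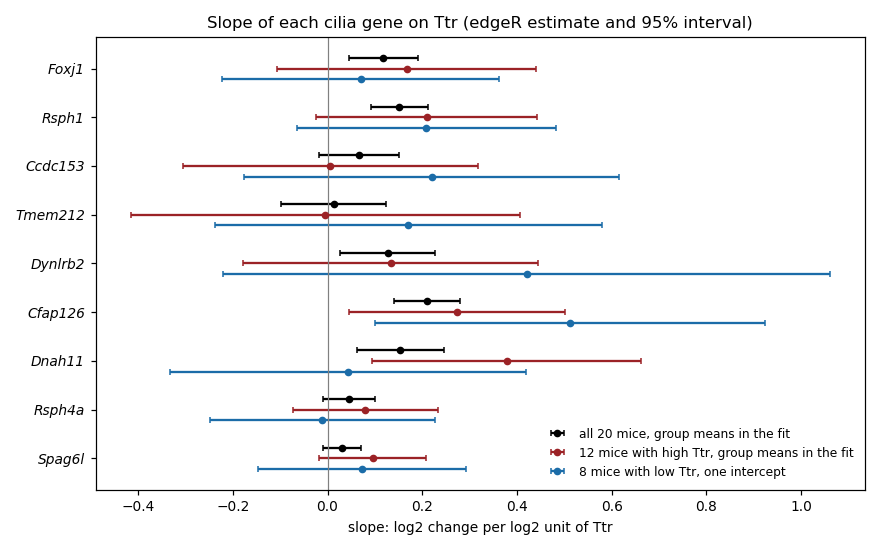
Slope of each cilia gene on Ttr (x axis, log2 change per log2 unit of Ttr), as the edgeR estimate with its 95% interval, over all 20 mice, in the 12 mice with high Ttr and in the 8 with low Ttr. The intervals over all mice lie above 0 for Cfap126, Rsph1, Dnah11, Foxj1 and Dynlrb2, and those within the sets are wide, with Cfap126 alone above 0 in both.

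Because the mice fell into 2 sets, no correlation over all 20 is given. In the 12 mice with high Ttr, Pearson's r with log2 Ttr was 0.67 in Cfap126 (Spearman's rho 0.83, permutation p of r = 0.0214), 0.57 in Rsph1 (rho 0.69, permutation p = 0.0573), 0.54 in Dnah11 (rho 0.66, permutation p = 0.0731) and 0.53 in Spag6l (rho 0.72, permutation p = 0.0766). The other 5 members ran from 0.07 in Ccdc153 to 0.33 in Dynlrb2. After adjustment over 21723 genes 0 of 9 members passed, beside 0.212% of all genes, all 9 having an adjusted p = 1.00. By r 1 of 9 had an unadjusted p under 0.05 against 3.37% of all genes, and by rho 4 of 9 against 4.63%. Without S167 and S178, the mice farthest from the median Ttr of the set, r was 0.84 in Cfap126, 0.84 in Rsph1 and 0.83 in Dnah11.

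In the 8 mice with low Ttr, r was 0.75 in Cfap126 (rho 0.76, exact permutation p = 0.0368) and 0.70 in Rsph1 (rho 0.60, exact permutation p = 0.0547), and between -0.06 in Rsph4a and 0.43 in Spag6l for the other 7. After adjustment 0 of 9 members passed, beside 0% of all genes, the smallest adjusted p of a member being 0.6249 by exact permutation test. Unadjusted, 1 of 9 passed by r against 7.72% of all genes and 1 of 9 by rho against 7.02%. Without the 2 mice farthest from the median, r was 0.73 in Cfap126 and 0.84 in Rsph1, and 2 of 9 members changed sign. Those were Dnah11, from 0.09 to -0.14, and Rsph4a, from -0.06 to 0.32.

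**Figure D4:**
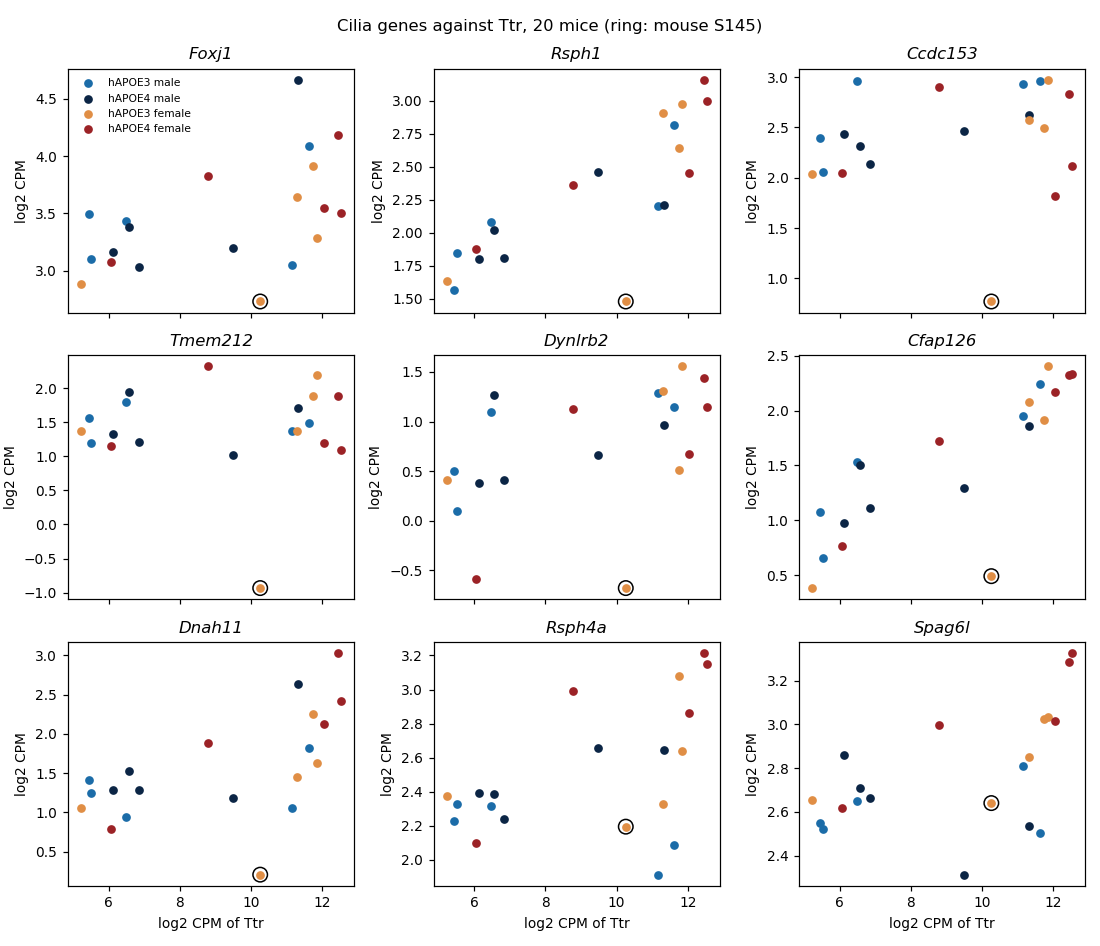
Log2 CPM of each cilia gene (y axis) against log2 CPM of Ttr (x axis) in 20 mice coloured by group, with a ring around S145. The mice form 2 sets, below 7 and above 8 on the x axis, and Cfap126 and Rsph1 are mostly higher in the right-hand set, where S145 is the lowest.

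S145 combined a high Ttr with low cilia genes. It had 1225 CPM of Ttr, in the upper set, with the lowest cilia score of all mice, while S167 had 439.8 CPM of Ttr, the lowest of the upper set, with the score of 0.39, the third highest. Without S145, edgeR called 5 of 9 slopes, Dynlrb2 now among them (slope 0.13, edgeR adjusted p = 0.0437). The calls also depended on other single mice. Without S158 or without S176 the count fell to 2 of 9, Cfap126 and Rsph1. The calls over all genes moved too, from 904 to 4831 genes with each mouse left out in turn, beside 2852 with all mice. Without S158, Foxj1 had a slope of 0.11 (edgeR adjusted p = 0.123) and Dnah11 of 0.16 (edgeR adjusted p = 0.0791), and without S176 Foxj1 of 0.08 (edgeR adjusted p = 0.100) and Dnah11 of 0.13 (edgeR adjusted p = 0.0795). Foxj1 was also lost without any one of S146, S155, S165, S174 and S177, and Dnah11 without S168. With the oxidative phosphorylation score as a covariate the same 4 members passed, with Cfap126 at 0.18, Rsph1 at 0.13, Dnah11 at 0.19 and Foxj1 at 0.13. Without the 5 hAPOE3 mice with a high score, Cfap126, Rsph1 and Dnah11 passed and Foxj1 did not (slope 0.15, edgeR adjusted p = 0.0727).

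The members varied together to different degrees. Over the 20 mice the Pearson correlation of log2 CPM between pairs of members ran from 0.13 to 0.90, with a median of 0.58 over the 36 pairs, as a description of values that share libraries and depth. Rsph1 and Cfap126 were the most alike (0.90), followed by Ccdc153 and Tmem212 (0.85), Foxj1 and Dnah11 (0.84) and Dynlrb2 and Cfap126 (0.81). The likeness of Foxj1 and Dnah11 rests on CPM, and was not computed from the deposited normalized counts. There S176, the highest mouse in Foxj1 at 1108, was at 110.6 in Dnah11, against 118.9 to 130.9 in the other hAPOE4 males. The least alike were Ccdc153 and Rsph4a (0.13) and Ccdc153 and Spag6l (0.14), the marker against a radial spoke and a central pair gene. Without S145 the median fell to 0.49 and Ccdc153 with Tmem212 to 0.64, while Rsph1 with Cfap126 stayed at 0.88. Centred on the group means, the median was 0.56.

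**Figure D5:**
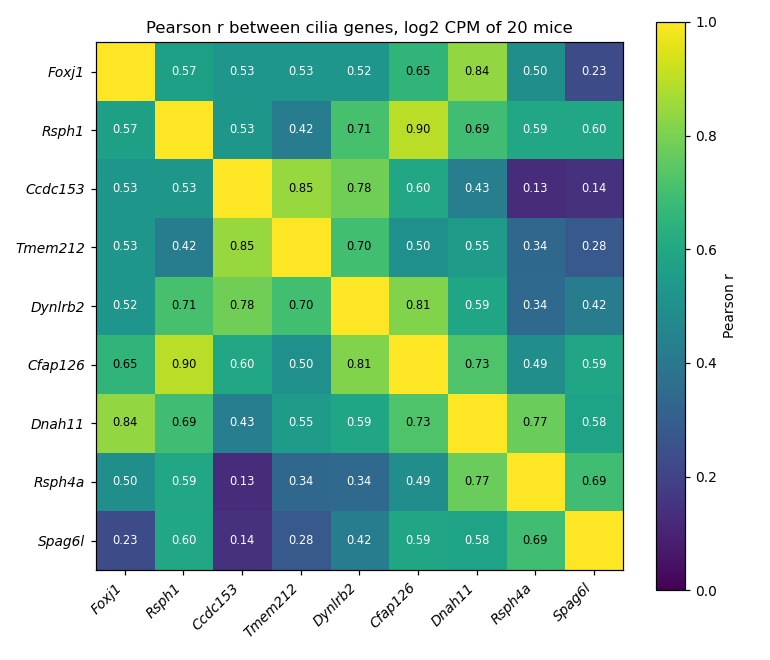
Pearson r between each pair of the 9 cilia genes, from log2 CPM of 20 mice, on a colour scale from 0 to 1. Rsph1 with Cfap126 (0.90) and Ccdc153 with Tmem212 (0.85) stand out, and Ccdc153 with Rsph4a (0.13) is the lowest.

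The mean cilia score of the 9 members was 0.22 ± 0.48 (SD, n = 5) for hAPOE4 females and -0.10 ± 0.65 for hAPOE3 females. For males it was -0.06 ± 0.25 with hAPOE3 and -0.06 ± 0.26 with hAPOE4, and the groups overlapped. Of 16087 other genes with a mean log2 CPM above 0, those most like this score over the 20 mice were Gm19935 (Pearson r 0.95), Dnali1 (0.95), 1700007K13Rik (0.93), Ccdc146 (0.91), Ak7 (0.90), Tsnaxip1 (0.88), Rarres2 (0.88), Mlf1 (0.88), Armc3 (0.87) and 2410004P03Rik (0.87). Dnali1, a light chain of the inner dynein arms, Ccdc146, Ak7, an adenylate kinase of motile cilia, and Rarres2 were on the lists above, and the other 6 were not. Without S145 these correlations ran from 0.80 to 0.94. In the slope on Ttr, Gm19935 (0.14, edgeR adjusted p = 0.0113), Dnali1 (0.13, edgeR adjusted p = 0.0290), 1700007K13Rik (0.13, edgeR adjusted p = 0.0137) and Mlf1 (0.15, edgeR adjusted p = 0.0174) rose, and the other 6 did not pass.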

How the data were processed

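Hippocampal RNA of 20 mice was analysed. From paired-end reads of polyA RNA the authors estimated transcript abundance with Salmon 0.91, which tximport turned into counts for each gene. The deposited expected counts are whole numbers without normalization. The second deposited table, a normalized signal from DESeq2 with factors specific to gene and mouse, was used for one alternative. All sample columns were matched by name and 0 were left out. The 190 pairs of libraries all differed by more than sampling noise (lowest chi-square over degrees of freedom 10.0). Total counts of 35778879 to 52520279 per mouse limit the precision of the lowest member count, 19 for Tmem212 in mouse S145, to a counting error of 22.9%.

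The test was the quasi-likelihood one (glmQLFit, glmQLFTest) of edgeR 4.0.16 under R 4.3.3, with TMM, the filterByExpr filter (21724 of 33119 genes left), 4 group means, Benjamini-Hochberg over all genes, threshold 0.05. The slope on Ttr added its log2 CPM (prior count 2). Correlations used permutation tests, exact over 8 mice and with 100000 resamples over 12, two-sided, in numpy. Alternatives were DESeq2 1.42.0, its size factors in edgeR, no filter, limma 3.58.1 on log2(normalized count + 1), covariates, fewer groups and each mouse left out. Scripts were tested on simulated data. The members and lists were chosen with earlier results of these data known, and the loose form of the X-box after these promoters had been searched. Genes named beside the 9 members and Ttr were listed motile cilia genes past the threshold (up to 10 by p), choroid plexus genes with the 5 largest slopes and the 10 genes most like the member score. Dnah6 and Drc7 come from those lists. Gpr161 comes from the list of primary cilia genes, and Gpr161, Rfx3 and Dnal1 were named after their values were seen. Positions are those of GENCODE M21 on GRCm38. The oxidative phosphorylation score was added after seeing the data.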

Additional observations from a re-analysis of the deposited data

Results flagged for a closer look

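In 4 of the 48 groups of 5 mice looked at (9 members, Ttr, Dnah6 and the member score in 4 groups), a single mouse lay so far from the nearest of the others that the gap, as a part of the group's whole range of log2 CPM, passed the 95% limit of Dixon's test for 5 values. About 1 group in 20 does so by chance. The hAPOE4 male S176 was high in Foxj1, with a level of 4.67 against 3.04 to 3.38 in the other 4 and a gap of 0.79 of the range. The same mouse was high in Dnah11, with 2.63 against 1.179 to 1.52 and a gap of 0.762 of the range. In the deposited normalized counts, which carry the correction for transcript length, it was instead the lowest of the 5 hAPOE4 males in Dnah11, at 110.6 against 118.9 to 130.9. The hAPOE3 female S145 was low in Tmem212, with -0.93 against 1.37 to 2.20 and a gap of 0.736 of the range. The hAPOE3 female S146 was low in Ttr, with 5.22 against 10.26 to 11.84 and a gap of 0.761 of the range.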

How the results depend on the processing

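The counts of 0 of 9 members called in each of the 5 group comparisons stayed at 0 under DESeq2, DESeq2's size factors, no filter, limma on the deposited normalized counts, Ttr as a covariate, only the 2 groups compared (not run for the interaction, which needs all 4), the oxidative phosphorylation score as a covariate and each mouse left out in turn. Single-member estimates that changed sign did so without passing a threshold before or after. The counts of other motile cilia genes called between genotypes were 0 to 1 in males and 0 to 2 in females. The slope on Ttr, with 4 of 9 members called, gave 3 to 5 under the 8 other settings of test, scaling, filter, table, group means and Ttr measure and 2 to 5 with each mouse left out. It gave 0 in the 12 mice with high Ttr and 0 in the 8 with low Ttr, chosen after seeing the data, where fewer mice enter the fit. In the 8, the slopes of Dnaaf3 and Dnah7b were -0.048 and -0.077. The number of all genes with a slope past the threshold, 2852, fell to 1046 with one intercept, 1505 with the rank of Ttr, 1479 with the choroid plexus list in place of Ttr and 1887 without the 2 mice farthest from the median Ttr, and the cause was not tested. Over the other settings, each mouse left out and the added ones, that number ran from 0 to 4831. The numbers of all genes called between groups ran from 45 to 322 beside 135 (hAPOE4 against hAPOE3, males), 74 to 339 where edgeR called 0.667% of 21724 genes (females), 8 to 25 beside 9 (females against males, hAPOE3), 32 to 275 beside 95 (hAPOE4) and 16 to 118 beside 40 (interaction). Without the 2 mice farthest from the median Ttr, 16 of the 90 other motile cilia genes passed in place of 25, where 1887 of all genes passed. Without the 5 hAPOE3 mice with a high oxidative phosphorylation score 11 passed, where at most 2155 of all genes did in place of 2852. In the correlations within the sets, 0 of 9 members passed by Spearman's rho or without the 2 farthest mice. Centring on group means was not run in the set of 8, where some groups hold a single mouse. The member score moved by less than 1 SD in each group with the median, with a prior count of 0.5 and without each member. No paired analysis was possible because the labels give no replicate numbers that mice of different groups share. Depth limits Tmem212 and Dynlrb2 most, with 19 and 23 counts in the lowest mouse.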
